A study of Mus musculus with 43 samples.

Results

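Tight junctions seal the space between neighbouring epithelial cells and set which ions and water pass there. The genes described here are 10 of the 23951 genes in each bulk table and of the 54307 gene rows of each single-cell matrix, taken by their symbols: the claudins Cldn1, Cldn2, Cldn3, Cldn4, Cldn7, Cldn8, Cldn15 and Cldn23, the scaffold gene Tjp1 (which encodes ZO-1) and Ocln (occludin). All 10 were found in both kinds of data. As background, claudins are four-pass membrane proteins whose mix decides the leak of a junction. Cldn2 and Cldn15 form channels for small cations and, for Cldn2, water. Cldn1, Cldn3, Cldn4 and Cldn8 are counted among the sealing claudins, Cldn7 lies mostly along the basolateral membrane of intestinal cells with its partner EpCAM, and Cldn23 is a claudin of differentiated gut epithelium. ZO-1 ties these proteins to actin, and occludin is a membrane protein of the MARVEL family.

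The bulk libraries came from primary intestinal organoids, which are gut epithelium grown in Matrigel, of wild-type C57BL/6 mice. Non-irradiated organoids were collected on day 7 (D7 non-IR), organoids irradiated with 4 Gy on day 4 were collected on day 7 (D7 IR), and organoids irradiated alike were collected on day 11 (D11 IR). Each condition had 3 libraries given vehicle and 3 given 2 ng/mL TGFB1, a cytokine of the TGF-beta family, for 24 h starting on day 6, so the D11 organoids were collected days after that exposure ended. Single cells came from irradiated (4 Gy, day 4) organoids of the same strain on day 8, with 1 library each for vehicle (0 h) and for 6, 15 and 24 h of 1 ng/mL TGFB1. Single cells also came from Ki67-RFP+ DAPI- cells sorted from crypts of the proximal small intestine of Mki67tm1.1Cle/J mice, in which proliferating cells carry a red fluorescent Ki67 fusion, with 1 library from a non-irradiated littermate and 2 libraries taken 56 h after 12 Gy to the whole body. Crypts were passed through a wider strainer in the irradiated mice than in the control, so irradiation and this step cannot be told apart. The labels do not say whether replicate libraries came from separate cultures, so the p-values below measure the spread between these libraries.

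Bulk libraries had 11040 to 11361 genes above 1 FPKM, and FPKM (fragments scaled by gene length and library size) do not give their total depth. The worth of 1 read, taken from the steps between low values, was 0.824 to 1.14 times that of vehicle replicate 1 of the same table, so depths were alike within a table. The organoid single-cell libraries kept 2218 to 4283 cells and the crypt libraries 699 to 1846, with 1.23e+07 to 3.24e+07 UMIs in all. At most 1 barcode was shared between any 2 of the 7 libraries. Epcam, a marker of all gut epithelium, lay between 532 and 2148 FPKM in the 18 bulk libraries. Of the markers of other cell types, 3 of 6 immune, 5 of 6 mesenchymal and 4 of 5 endothelial genes stayed under 1 FPKM in all 18 libraries, and Emcn was listed at 0. In bulk tissue, fewer cells of a type and less RNA per cell cannot be told apart.

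Sequences upstream of the start were available from RefSeq (GRCm38.p6) for 8 of the 10 genes. The 250 bases before the start are shown for Cldn4, whose log2 change with TGFB1 was 2.17, 3.54 and 1.01 in the 3 bulk conditions. Cldn3, its immediate neighbour on chromosome 5, and Cldn15, whose level moved the other way, were added after their values were seen. Capitals mark matches to TGANTCA, the motif of AP-1 factors, read on both strands.

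Cldn4, chr5:134946935-134947184, minus strand: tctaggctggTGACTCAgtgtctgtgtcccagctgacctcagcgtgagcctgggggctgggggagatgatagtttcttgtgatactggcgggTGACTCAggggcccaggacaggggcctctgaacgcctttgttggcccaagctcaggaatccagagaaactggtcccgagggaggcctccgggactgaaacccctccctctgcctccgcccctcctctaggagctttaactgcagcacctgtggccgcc
Cldn3, chr5:134985964-134986213, plus strand: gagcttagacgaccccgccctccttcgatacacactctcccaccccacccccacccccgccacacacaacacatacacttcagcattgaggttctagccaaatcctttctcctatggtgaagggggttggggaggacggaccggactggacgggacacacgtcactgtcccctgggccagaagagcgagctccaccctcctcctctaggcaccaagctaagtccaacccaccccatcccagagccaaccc
Cldn15, chr5:136967619-136967868, plus strand: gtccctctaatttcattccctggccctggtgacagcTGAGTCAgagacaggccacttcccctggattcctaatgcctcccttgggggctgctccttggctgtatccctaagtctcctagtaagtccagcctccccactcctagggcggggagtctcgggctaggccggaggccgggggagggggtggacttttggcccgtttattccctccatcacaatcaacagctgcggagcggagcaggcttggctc

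The Cldn4 window held 2 such matches, starting 240 and 158 bases before the start, the Cldn15 window held 1 at 214 bases, and the Cldn3 window held 0. TGANTCA was present in 6.75% of the 32851 windows of this length in the table and in 2 of the 10 windows of the 8 genes (Cldn7 and Ocln have 2 windows each). Of 4 other motifs searched on both strands, CAGAC (bound by SMAD factors, present in 42.2% of all windows) occurred once in Cldn4 and not in Cldn3 or Cldn15. It was in 3 of the 10 windows in all, that of Cldn4 and both of Cldn7. GGAATG (TEAD, 12.6%) occurred once in Cldn15, not in Cldn4 or Cldn3, and in 3 of the 10 windows in all. GGGCGG (the GC box, 32.7%) occurred in all 3 windows shown and in 8 of the 10, and AACNGGTT (grainyhead, 1.79%) in 0 of the 10 windows. These are matches of letters, not measured binding.

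In non-irradiated organoids at D7, TGFB1 raised Cldn4 4.51-fold and lowered Cldn15 3.08-fold. At an adjusted p under 0.05 (limma, Benjamini-Hochberg over all genes), 8 of the 9 genes tested were called, 5 up and 3 down. Of all 11330 genes, 68.2% were called (33.3% higher, 34.9% lower). Of the 9, Cldn4, Cldn23 and Cldn15 moved at least 2-fold, which 8.44% of all genes did, and for 8 the groups did not overlap, as for 72.1% of all genes. The median log2 change of the 9 genes was 0.24, against -0.02 over all genes. Cldn1 lay under the filter of a mean of 1 FPKM.

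Among the channel-forming claudins, Cldn15 stood at 277, 270.2 and 279 FPKM with vehicle and 87.0, 87.3 and 93.8 FPKM with TGFB1. The lowest vehicle library was well above the highest TGFB1 library, and the log2 change was -1.61 (SE 0.036, limma adjusted p 4.99e-11). Cldn2 was at 205, 206 and 199.5 FPKM with vehicle and at 146, 139 and 142 FPKM with TGFB1. It fell by 0.51 on the log2 scale (SE 0.031, limma adjusted p 1.02e-07), a much smaller step than that of Cldn15.

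Of the sealing claudins, Cldn4 was measured at 247, 251 and 262 FPKM with vehicle and at 1074, 1182 and 1173 FPKM with TGFB1. The groups did not overlap, and the log2 change of 2.17 (SE 0.041, limma adjusted p 1.95e-11) was the 121st highest of the 11330. Cldn3 moved little and the other way, from 563, 588 and 613 to 507, 544 and 524 FPKM (log2 change -0.16, SE 0.038, limma adjusted p 0.00306). This call was lost when all 18 libraries were fitted together (adjusted p 0.202, from 0.00128 to 0.202 over the alternatives). Cldn8 was scarce at 1.91, 1.53 and 1.14 FPKM with vehicle and 1.19, 0.879 and 1.16 FPKM with TGFB1, and these ranges overlapped. Its adjusted p by limma was 0.0618, and 0.0126 without vehicle replicate 3 (0.0126 to 0.239 over the alternatives). Cldn1 was listed at 0, 0.0365 and 0.0708 FPKM with vehicle and at 0.151, 0.365 and 0.130 FPKM with TGFB1, with no overlap. It was under the filter, and without that filter limma called it higher (log2 change 0.23, adjusted p 0.0361).

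Cldn7 went from 837, 823 and 834 to 1070.2, 1075 and 1059.6 FPKM, a rise of 0.36 on the log2 scale (SE 0.025, limma adjusted p 3.24e-07). Cldn23 rose 2.10-fold, from 19.9, 20.8 and 22.2 to 43.0, 45.0 and 44.3 FPKM (log2 change 1.04, limma adjusted p 6.83e-09). Tjp1 rose from 34.0, 33.5 and 33.7 to 46.5, 52.4 and 49.2 FPKM (log2 change 0.54, limma adjusted p 1.3e-06). Ocln rose from 67.5, 72.6 and 69.1 to 77.6, 86.4 and 83.7 FPKM (log2 change 0.24, limma adjusted p 0.000773). The libraries of these 4 genes did not overlap between the groups.

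**Figure D1:**
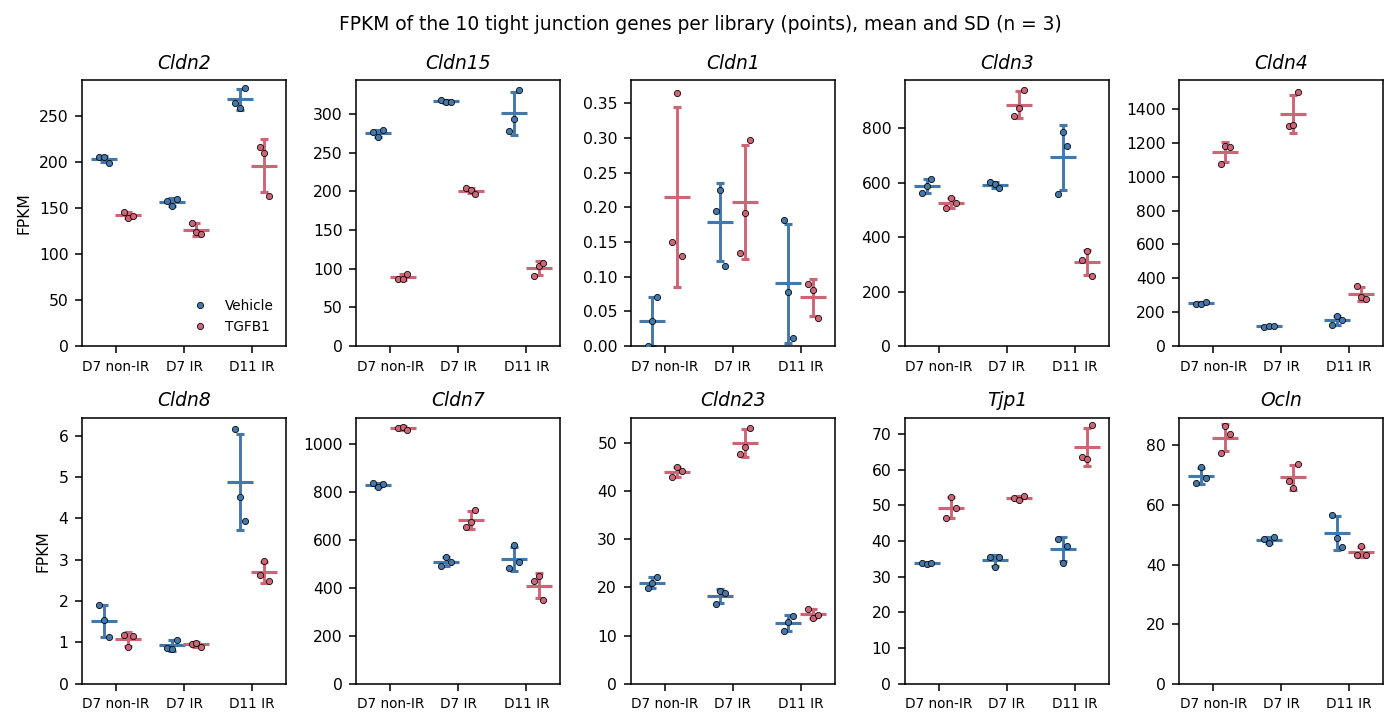
FPKM of each of the 10 genes (one panel each, linear axis from 0) in the 18 bulk libraries by condition, with points for libraries, blue for vehicle, red for TGFB1, and bars for the mean and SD (n = 3). Cldn4 is higher and Cldn15 and Cldn2 are lower with TGFB1 in every condition, while Cldn3 lies above its vehicle libraries in D7 IR and below them in D7 non-IR and D11 IR.

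In irradiated organoids at D7, Cldn4 rose 11.8-fold with TGFB1 and became the most abundant of the 10 genes, while Cldn3 rose instead of falling. limma called 8 of the 8 genes tested (6 higher, 2 lower), against 75.5% of all 11258 genes (35.8% higher, 39.7% lower). Cldn4 and Cldn23 moved at least 2-fold, as 13.2% of all genes did, and the groups did not overlap for any of the 8 (78.2% of all genes). The median log2 change was 0.55 over the 8 genes and -0.03 over all genes. Cldn1 and Cldn8 were under the filter.

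Cldn4 was at 112, 117 and 119.6 FPKM with vehicle and at 1300.3, 1304 and 1499 FPKM with TGFB1. Its log2 change of 3.54 (SE 0.056, limma adjusted p 2.36e-11) ranked 34th from the top of 11258. Cldn3 went from 602, 596 and 581 to 846, 873 and 942 FPKM with no overlap (log2 change 0.58, SE 0.044, limma adjusted p 5.83e-07). The channel-forming claudins fell. Cldn15 went from 318, 315 and 315 to 204, 201 and 197 FPKM (log2 change -0.65, limma adjusted p 2.54e-08), and Cldn2 from 158, 152 and 160.0 to 135, 124 and 122 FPKM (-0.31, limma adjusted p 8.8e-05). In both, every TGFB1 library was below every vehicle library.

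Cldn23 was at 16.5, 19.2 and 18.9 FPKM with vehicle and at 47.8, 49.1 and 53.2 FPKM with TGFB1 (2.75-fold, limma adjusted p 1.19e-08). Cldn7 went from 492, 528 and 510.3 to 653, 677 and 728 FPKM (log2 change 0.43, limma adjusted p 1.05e-05). The scaffold and MARVEL genes rose by similar factors, Tjp1 1.51-fold (35.6, 32.7 and 35.4 to 52.0, 51.6 and 52.7 FPKM, limma adjusted p 5.17e-07) and Ocln 1.44-fold (48.4, 47.1 and 49.3 to 68.2, 65.9 and 73.8 FPKM, limma adjusted p 2.59e-06). Cldn8 (0.847 to 1.07 FPKM with vehicle, 0.879 to 0.995 with TGFB1) and Cldn1 (0.116 to 0.225 and 0.134 to 0.297 FPKM) overlapped between the groups, and neither was called without the filter (limma adjusted p 0.845 and 0.679).

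At D11, days after the exposure, most of the calls were downward. limma called 7 of the 9 genes tested, 2 higher and 5 lower, against 63.9% of all 11479 genes (32.3% higher, 31.6% lower). The split depended on the setting. Under quantile normalization the calls were Cldn15, Cldn3 and Cldn8 lower and Cldn4 and Tjp1 higher. Cldn15, Cldn3 and Cldn4 moved at least 2-fold, as 13.7% of all genes did, and for 7 of the 9 the groups did not overlap (70.0% of all genes). For Cldn4 and Cldn3 the 2-fold mark depended on the setting. The log2 change of Cldn4 was 1.01, but 0.88 without vehicle replicate 1 and 0.90 without TGFB1 replicate 1, and that of Cldn3 was -1.16, but -0.91 under quantile normalization. The median log2 change was -0.35 over the 9 genes and 0.01 over all genes.

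Cldn15 was at 278, 293 and 331 FPKM with vehicle and at 91.0, 104 and 108 FPKM with TGFB1, 2.98-fold lower (log2 change -1.56, SE 0.104, limma adjusted p 1.27e-06). Cldn2 fell from 265, 259 and 281 to 216, 210.5 and 163 FPKM (-0.46, limma adjusted p 0.0073). This call was lost under quantile normalization (adjusted p 0.0612, from 3.82e-05 to 0.0612 over the alternatives). Cldn3 fell 2.25-fold, from 560.3, 788 and 734 to 317, 348 and 259 FPKM (log2 change -1.16, SE 0.157, limma adjusted p 0.000134). Cldn4 still rose, but only 2.00-fold, from 128, 181 and 152 to 352, 291 and 279 FPKM (log2 change 1.01, SE 0.140, limma adjusted p 0.000167).

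Cldn8 was higher at D11 than in the other tables and fell with TGFB1, from 6.17, 4.52 and 3.94 to 2.63, 2.97 and 2.48 FPKM (log2 change -0.65, SE 0.141, limma adjusted p 0.00251). Tjp1 rose 1.76-fold (40.5, 34.0 and 38.7 to 63.5, 63.1 and 72.6 FPKM, limma adjusted p 4.03e-05). Cldn7 fell from 482, 578 and 508 to 429.5, 451 and 350.0 FPKM (log2 change -0.35, SE 0.128, limma adjusted p 0.0349). The Cldn7 call was lost without vehicle replicate 2 (adjusted p 0.128), vehicle replicate 3 (0.0592), TGFB1 replicate 1 (0.0676) or TGFB1 replicate 3 (0.147), and ranged from 0.00088 to 0.359 over the alternatives. Cldn23 (10.9, 12.8 and 14.1 against 15.6, 13.7 and 14.3 FPKM, limma adjusted p 0.112) and Ocln (56.8, 49.0 and 45.8 against 43.4, 46.2 and 43.3 FPKM, limma adjusted p 0.0966) overlapped between the groups and were not called. Without vehicle replicate 3, limma called Cldn23 (adjusted p 0.0365, from 0.0309 to 0.311 over the alternatives) and Ocln (0.0356, from 0.0207 to 0.227). Cldn1 stayed between 0.0115 and 0.181 FPKM and was not called without the filter (limma adjusted p 0.754).

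**Figure D2:**
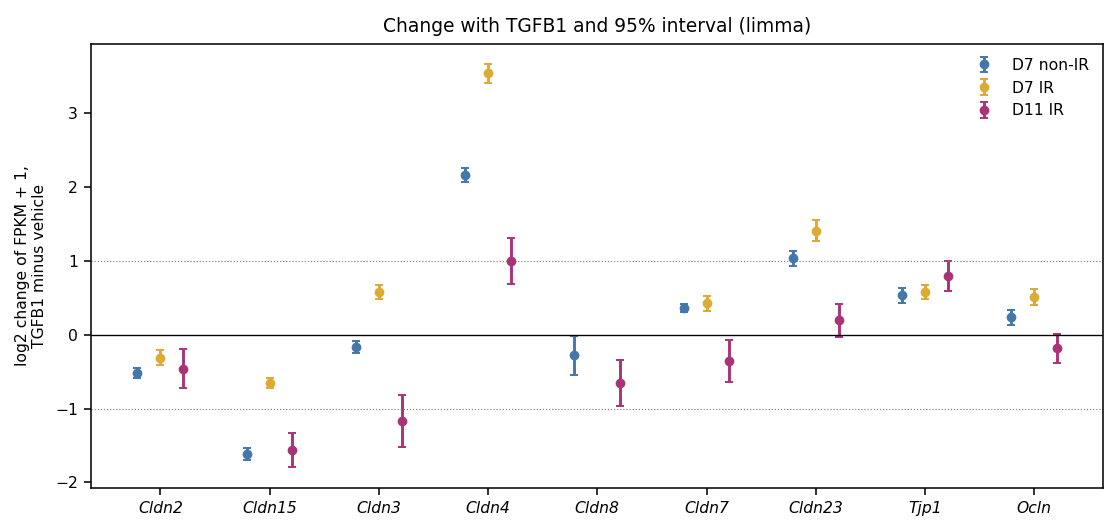
Log2 change of FPKM + 1 with TGFB1 against vehicle for 9 genes (x axis), with the limma estimate as a point and its 95% interval as a bar, coloured by condition. Dotted lines mark 2-fold, and a missing point was under the filter. Cldn4 reaches 3.54 in D7 IR, 2.17 in D7 non-IR and 1.01 in D11 IR, and Cldn15 lies below 0 in all 3.

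The response to TGFB1 differed between non-irradiated and irradiated organoids at D7 for 6 of the 9 genes tested (limma interaction term), against 53.1% of all 11411 genes. All 6 terms were positive (25.3% of all genes had a positive and 27.8% a negative call), that is, the change was more upward or less downward after irradiation. Cldn4, the single member past 2-fold (4.38% of all genes were), had a difference of 1.38 (95% interval 1.21 to 1.54, limma adjusted p 4.93e-09). Cldn15 followed with 0.96 (0.86 to 1.06, limma adjusted p 1.3e-09) because it fell less, and Cldn3 with 0.74 (0.61 to 0.87, limma adjusted p 2.19e-07). The differences were smaller for Cldn23 (0.38), Ocln (0.27) and Cldn2 (0.21, limma adjusted p 0.00543). The Cldn2 term was lost in a fit of all 18 libraries (adjusted p 0.146, from 0.00148 to 0.146 over the alternatives). For Tjp1 the difference was 0.04 (95% interval -0.09 to 0.18) and for Cldn7 0.06 (-0.05 to 0.18, -0.045 under quantile normalization), neither past the threshold. The Cldn8 term of 0.29 (limma adjusted p 0.117) passed it without D7 non-IR vehicle replicate 3 (0.0242, from 0.0242 to 0.296 over the alternatives).

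Between D7 and D11 of irradiated organoids the response differed for 7 of the 9 genes, against 64.5% of all 11456 genes, and all 7 terms were negative (31.5% of all genes had a positive and 33.0% a negative call). At least 2-fold differences were found for 3 members and 16.4% of all genes. This comparison shares its D7 IR libraries with the previous one, so the opposite signs are not independent of each other. The log2 change at D11 was lower than at D7 by 2.54 for Cldn4 (95% interval of the difference -2.89 to -2.18, limma adjusted p 2.08e-08). The difference was -1.74 for Cldn3 (limma adjusted p 1.23e-06), -1.22 for Cldn23 (1.38e-06), -0.91 for Cldn15 (6.04e-06), -0.78 for Cldn7, -0.69 for Ocln and -0.67 for Cldn8 (limma adjusted p 0.00332). Tjp1 again stood apart with a difference of 0.22 (0.00 to 0.44, limma adjusted p 0.0711). It passed the threshold without D11 vehicle replicate 1 (adjusted p 0.0245, from 0.0245 to 0.179 over the alternatives). The Cldn2 term was -0.15 (limma adjusted p 0.323) and turned to 0.13 under quantile normalization, with no call in either.

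Levels of vehicle libraries can be set side by side between the tables, which were deposited separately and may be scaled differently, so no test was made. At D7, Cldn4 was 2.18-fold lower in irradiated (116 ± 4.05 FPKM, SD, n = 3) than in non-irradiated organoids (253 ± 7.61), Cldn7 1.63-fold lower (510.0 ± 18.1 against 831 ± 7.54) and Ocln 1.44-fold lower (48.3 ± 1.09 against 69.7 ± 2.65). Cldn2, Cldn8 and Cldn23 were lower too, Cldn15 was higher (316 ± 2.00 against 275 ± 4.45), and Cldn3 and Tjp1 overlapped. Groups did not overlap for 7 of the 9 genes that passed the filter, 6 of them lower and 1 higher, against 85.0% of all 11235 genes (40.7% higher, 44.3% lower). From D7 to D11, vehicle Cldn8 was 5.28-fold higher (0.923 ± 0.125 to 4.88 ± 1.16 FPKM) and Cldn2 1.71-fold higher (157 ± 3.92 to 269 ± 11.5 FPKM). Cldn4 was higher, Cldn23 was lower and the other 5 overlapped, so 4 of 9 did not overlap, against 66.9% of all genes (33.7% higher, 33.1% lower).

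FPKM are scaled by length, so the genes can also be ranked against each other. With vehicle at D7 non-IR the order was Cldn7, Cldn3, Cldn15, Cldn4, Cldn2, Ocln, Tjp1, Cldn23, Cldn8 and Cldn1, with no overlap between neighbours. With TGFB1, Cldn4 and Cldn7 came first with overlapping libraries, and Cldn15 dropped to a level just above Ocln. In D7 IR the first 5 were Cldn3, Cldn7, Cldn15, Cldn2 and Cldn4 with vehicle and Cldn4, Cldn3, Cldn7, Cldn15 and Cldn2 with TGFB1, again without overlap. At D11 with vehicle, Cldn3 overlapped Cldn7, and Cldn15 overlapped Cldn2. With TGFB1 at D11, Cldn7 overlapped Cldn4, which overlapped Cldn3, and Cldn2 (197 ± 29.2 FPKM) was above Cldn15 (101 ± 8.83 FPKM, SD, n = 3).

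These shifts changed the claudin make-up. In D7 non-IR, the FPKM of the 8 claudins summed to 2174 ± 31.7 in vehicle and 3013 ± 75.3 in TGFB1 libraries, to 1711 ± 15.7 and 3320 ± 193 in D7 IR, and to 1957 ± 202 and 1340 ± 143 at D11 (SD, n = 3). Cldn4 made up 11.7 ± 0.181% of this sum in the D7 non-IR vehicle libraries and 37.9 ± 1.08% in the TGFB1 libraries. In D7 IR its share went from 6.79 ± 0.221% to 41.2 ± 1.02%, and at D11 from 7.81 ± 0.638% to 23.0 ± 2.24%. The channel-forming Cldn2 and Cldn15 together went from 22.0 ± 0.387% to 7.70 ± 0.292%, from 27.6 ± 0.519% to 9.89 ± 0.823%, and from 29.2 ± 2.79% to 22.2 ± 0.734%. In all 3 conditions the libraries of the 2 groups did not overlap in these shares.

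**Figure D3:**
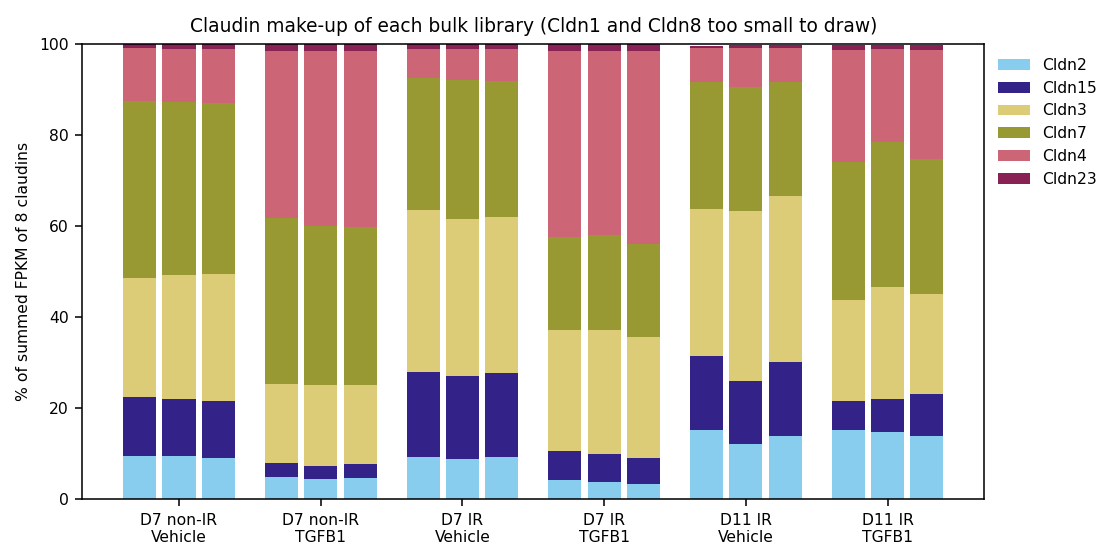
Share of each claudin in the summed FPKM of 8 claudins, in percent, with 1 stacked bar per bulk library in groups of 3. The Cldn4 segment widens with TGFB1 from 11.7 to 37.9% in D7 non-IR, from 6.79 to 41.2% in D7 IR and from 7.81 to 23.0% in D11 IR (means).

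Markers of cell states moved in the same libraries, and their part in these results was not tested. The 6 regenerative markers (Clu, Anxa1 and Ly6a among them) lay between 219 and 257 FPKM in sum with vehicle in D7 non-IR and between 2517 and 2619 after TGFB1, 233 to 261 and 4258 to 4602 in D7 IR, and 129 to 165 and 4138 to 4987 at D11. The 9 enterocyte markers summed to 3295 to 3442 and 1892 to 2043 FPKM, to 12503 to 13291 and 18867 to 19742, and to 3318 to 5855 and 2037 to 2405. The 7 proliferation markers summed to 552 to 563 and 277 to 288 FPKM, to 660 to 666 and 150.1 to 187, and to 589 to 653 and 580.1 to 679. No marker of these lists was at 0 in all libraries.

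Markers of the other cell types of the gut epithelium were summed in the same way, and their part was not tested either. The summed stem markers were at 915 to 1002 FPKM with vehicle and 579.9 to 604 with TGFB1 in D7 non-IR, at 980.1 to 1013 and 394 to 479 in D7 IR, and at 581 to 759 and 718 to 880.5 at D11. The goblet sums were lower with TGFB1 in each condition, 3723 to 3848 and 2848 to 3002 FPKM, 1562 to 1577 and 1254 to 1388, and 1926 to 2274 and 1369 to 1483. The Paneth sums were 11001 to 11258 and 9972 to 10948 FPKM, 4590.0 to 5274 and 8157 to 8288, and 3057 to 3802 and 4499 to 5791. The enteroendocrine sums were 218.5 to 230.2 and 212 to 219.4 FPKM, 209 to 213 and 348 to 374, and 437 to 464 and 113 to 139.

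The tuft sums were 6.58 to 7.04 and 9.46 to 10.1 FPKM, 6.54 to 7.01 and 12.97 to 13.9, and 14.6 to 16.8 and 17.8 to 19.8. The markers of cells outside the epithelium were low and higher with TGFB1 in every condition. The immune sums were 10.3 to 11.3 and 19.2 to 20.5 FPKM, 10.4 to 12.1 and 26.8 to 28.2, and 15.2 to 16.7 and 43.4 to 48.1. The mesenchymal sums were 0.0796 to 0.169 and 0.310 to 0.586 FPKM, 0.374 to 0.577 and 3.04 to 4.76, and 0.0937 to 0.293 and 1.18 to 2.03. The endothelial sums were 6.19 to 6.39 and 8.26 to 9.36 FPKM, 2.16 to 2.82 and 4.04 to 4.87, and 1.44 to 1.92 and 3.197 to 3.58.

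A further 81 genes were listed, 28 other claudins, 13 other membrane genes and 25 plaque genes of the junction, and 15 genes known to regulate it (kinases, proteases with their inhibitors, and transcription factors). Of these, 67 were in the tables. In D7 non-IR, limma called 29 of 45 tested genes higher and 7 lower with TGFB1 (all genes: 33.3% higher, 34.9% lower), with a median log2 change of 0.30. In D7 IR it called 36 of 47 higher and 6 lower (all genes: 35.8 and 39.7%), with a median of 0.51, and at D11 21 higher and 8 lower of 47 (all genes: 32.3 and 31.6%), with a median of 0.17. The 9 membrane genes tested were called higher in 9, 9 and 5 cases and lower in 0, and the 19 plaque genes higher in 10, 13 and 7 and lower in 2, 3 and 3. Of the regulators, 9 of 14, 10 of 15 and 8 of 15 were higher and 3, 3 and 5 lower. Of the other claudins, 1 of 3, 4 of 4 and 1 of 4 were higher and 2, 0 and 0 lower. The higher calls in D7 IR and at D11 include scarce claudins, given below, that passed the filter only through their TGFB1 libraries. Grhl3, a grainyhead transcription factor of barrier epithelia, rose in all 3 conditions, from a mean of 1.34 to 10.0 FPKM in D7 non-IR (log2 change 2.24), and by 2.68 and 2.60 on the log2 scale in D7 IR and D11. Ildr1, an angulin of the corners where 3 cells meet, rose by 1.52, 1.64 and 1.48, and the angiomotin-like gene Amotl1 by 2.06, 1.88 and 2.43. The paracingulin gene Cgnl1 rose by 1.67, 1.72 and 0.77. The largest limma adjusted p of these 12 changes was 7.49e-05.

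The junctional adhesion gene F11r rose 2.61-fold in D7 IR (99.6 to 260 FPKM), 1.66-fold in D7 non-IR and 1.62-fold at D11. Amotl2 rose by 0.75, 1.66 and 1.38 on the log2 scale, and Arhgef2, which encodes the junction-bound exchange factor GEF-H1, by 0.83, 1.22 and 1.56. Among the scarce claudins, Cldn6 rose from 0.373 to 2.93 FPKM in D7 IR and from 0.354 to 4.06 FPKM at D11. Cldn18 rose from 0.474 to 2.77 FPKM in D7 IR and was not called at D11 (limma adjusted p 0.593). The vehicle means given here for Cldn6 and Cldn18 lay under the filter of a mean of 1 FPKM. Both genes passed it only through their TGFB1 libraries, so the upward direction of these calls was built in. Wnk4, a kinase that acts on claudins, fell by 0.66, 0.86 and 1.28. Mylk, the myosin light chain kinase, rose by 0.51 and 0.87 at D7 and fell by 1.19 at D11. The largest limma adjusted p of the calls named in this paragraph was 0.000106.

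As a description across the 18 libraries, each log2 value was centred on its table, and the genes most like each member were found by Pearson r. The libraries share the TGFB1 contrast, so many genes have a high r. Mmp15 (r = 0.997), Rnh1 (0.996) and Ddr1 (0.996) were closest to Cldn4, and Rock2 (0.992), Gpr128 (0.987) and Macf1 (0.987) to Tjp1. Rdh7 (0.991) and Brpf3 (0.991) were among the 3 closest to Cldn15. Nat6 (0.994), Itpkc (0.991) and Pdlim2 (0.991) were closest to Cldn23, Sepw1 (0.985), Cst3 (0.973) and Ihh (0.972) to Cldn3, and Hp1bp3 (0.964), Mavs (0.955) and Ndufv1 (0.953) to Cldn2. For Cldn7 they were Bcl2l14 (0.978), Sin3b (0.965) and Degs2 (0.957), for Ocln Dynlt3 (0.961), Parp9 (0.955) and Cutal (0.950), and for Cldn8 Cftr (0.911), 2610020H08Rik (0.900) and Rufy2 (0.899). Among the members themselves, Cldn4 was closest to Cldn23 (r = 0.98) and Cldn2 to Cldn15 (0.91), while Tjp1 ran against both channel-forming claudins (-0.92 for each). The neighbours Cldn3 and Cldn4 had an r of 0.11.

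In single cells of irradiated D8 organoids, Cldn4 was higher at each later time, and no other member with enough UMIs reached a 2-fold difference from 0 h. Values are UMI counts scaled to the library total (CPM), summed over the cells of a library, with exact Poisson 95% intervals that cover counting error only. There is 1 library per time, so differences between times have no replicate check. Cldn4 stood at 95.2 CPM at 0 h (91.6 to 98.9), 133 at 6 h (129 to 137), 309 at 15 h (303 to 316) and 532 at 24 h (524 to 540.2). At 24 h the ratio to 0 h was 5.59 (5.36 to 5.82). At least 2-fold differences from 0 h were found for 2.07% of 10078 genes at 6 h, 3.96% at 15 h and 7.29% at 24 h, and for 0, 1 and 1 of the 8 members with a mean of at least 5 CPM.

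The other members moved less. Cldn7 was at 850.1, 956, 1073 and 1106 CPM at 0, 6, 15 and 24 h, Cldn23 at 35.1, 33.8, 49.3 and 52.1 CPM, and Tjp1 at 48.1, 47.7, 57.0 and 62.5 CPM. Each of these 3 was highest at 24 h. Cldn3 (348, 252, 326 and 311 CPM), Cldn15 (347, 257, 283 and 282 CPM) and Ocln (114, 87.8, 112 and 127 CPM) were lowest at 6 h. Cldn3 was below its 0 h level at each later time, whereas in D7 IR bulk organoids it rose with TGFB1. TGFB1 dose, day and method differ between these data. Cldn2 was at 106, 99.2, 100.0 and 127 CPM. Cldn8 had 46 to 113 UMIs per library (1.42 to 3.69 CPM) and Cldn1 at most 2.45 UMIs. Of 40 genes of the further junction lists with enough UMIs, Grhl3 was at least 2-fold higher at 6 h, Ildr1, Cgnl1, Amotl2, Mylk and Grhl3 at 15 h, and Ildr1, Cgnl1, Amotl2, Arhgef2 and Grhl3 at 24 h.

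In sorted Ki67-RFP+ crypt cells, among the 8 members with a mean of at least 5 CPM, the largest differences after irradiation were in Cldn4, with Cldn2 next. Cldn4 was at 6.25 CPM (5.32 to 7.29) in the non-irradiated library and at 75.3 and 114 in the 2 irradiated libraries, 12.0- and 18.2-fold higher. Cldn2 was at 88.1, 303 and 312 CPM, 3.44- and 3.54-fold higher. Cldn15 (324, 161 and 147 CPM) and Cldn23 (21.3, 8.74 and 8.51 CPM) were at least 2-fold lower in both. Both lay near that mark: the log2 ratios of Cldn15 were -1.01 and -1.14, but -0.88 and -1.03 from whole-number entries alone and -0.90 and -0.97 as a mean of per-cell CPM. Those of Cldn23 were -1.29 and -1.33, -1.16 and -1.22, and -1.03 and -0.97. No UMI of these 2 genes was fractional (shared with another gene row), so the whole-number values differ only through the library totals. Of all UMIs, 14.4% were fractional in the non-irradiated and 22.0 and 20.6% in the irradiated libraries. Thus 2 of the 8 members with enough UMIs were at least 2-fold higher in both irradiated libraries (10.4% of 10364 genes) and 2 were lower (4.70%), 1 with whole-number entries and 0 with per-cell CPM. With 1 non-irradiated library there is no test.

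Cldn3 was 1.77- and 1.69-fold lower (365, 207 and 217 CPM), and Ocln was at 78.4, 59.9 and 67.6 CPM. Cldn7 (831, 835 and 804 CPM) and Tjp1 (44.8, 45.1 and 52.1 CPM) differed little. Cldn8 was at 3.84 CPM (99 UMIs) without irradiation and rested on only 9 and 11 UMIs after it, 5.86- and 4.31-fold lower. Cldn2 was thus higher in irradiated crypt cells but lower in irradiated D7 bulk organoids with vehicle, and lower with TGFB1 in bulk. In single organoid cells it was instead higher at 24 h of TGFB1 than at 0 h. Cldn4 was higher in irradiated crypt cells and lower in irradiated vehicle organoids of the bulk data. Dose, time, tissue and method all differ between these data. Of 35 genes of the further junction lists with enough UMIs, Amotl2 was at least 2-fold higher (6.30, 18.8 and 16.7 CPM) and Mylk at least 2-fold lower (69.3, 23.3 and 28.2 CPM) in both irradiated libraries. Grhl2 was at 17.7, 47.0 and 42.6 CPM, but 29.2, 84.8 and 79.3% of its UMIs were fractional, shared with another gene row, and with whole-number entries alone it was lower after irradiation (14.6, 9.15 and 11.1 CPM), so no direction is given for it.

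**Figure D4:**
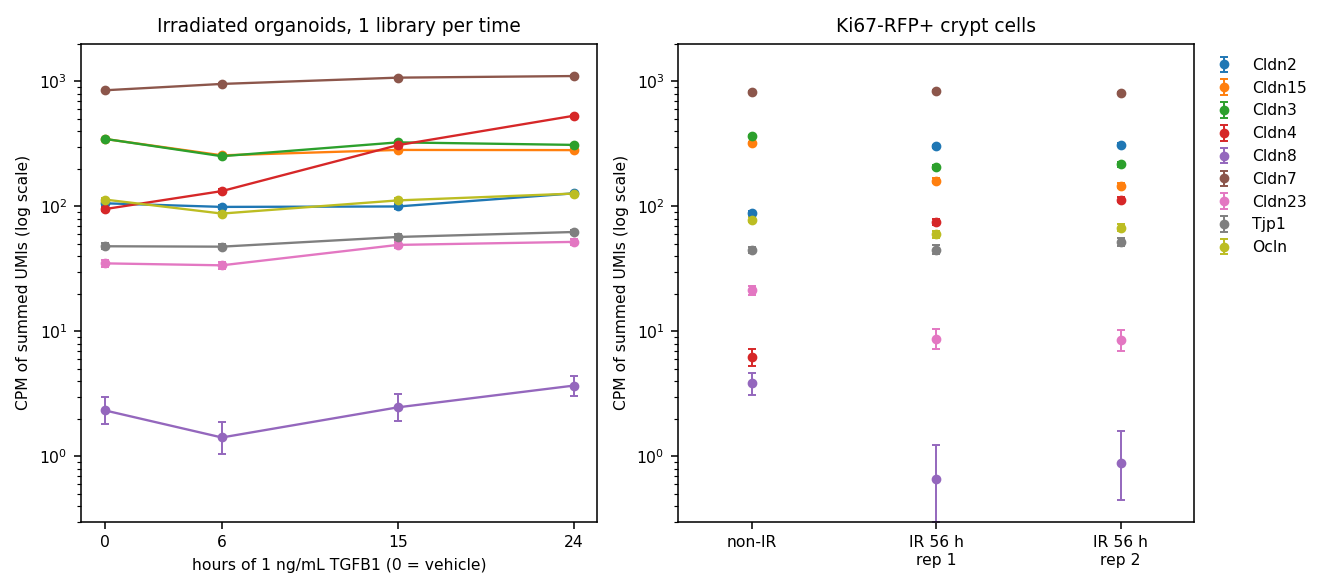
CPM of summed UMIs on a log axis for 9 genes, with exact Poisson 95% intervals. The left panel gives 4 libraries of irradiated organoids by hours of TGFB1, where Cldn4 goes from 95.2 to 532 CPM. The right panel gives 3 libraries of Ki67-RFP+ crypt cells, where Cldn4 goes from 6.25 to 75.3 and 114 CPM and Cldn2 from 88.1 to 303 and 312 CPM.

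Marker sums moved in these libraries as well, and their part was not tested. The 6 regenerative markers summed to 21.8, 79.0, 373 and 906 CPM at 0, 6, 15 and 24 h and to 2.25, 393 and 484 CPM in the crypt libraries (non-irradiated, irradiated 1 and 2). Of these markers 1 was at 0 at 0 h and at 6 h, and 2 in the non-irradiated crypt cells. The 9 enterocyte markers summed to 20082 to 23987 CPM in the organoids and to 3978, 825 and 2341 CPM in the crypt cells, and the 7 proliferation markers to 627, 738, 444 and 350 CPM and to 1133, 1116 and 1008 CPM. The other lists are given in the same order. Stem markers summed to 2890, 2904, 3010 and 2405 CPM in the organoids and to 2235, 1410 and 932 CPM in the crypt cells. Paneth markers went from 507, 547 and 700.3 to 1024 CPM, and stood at 2538, 712 and 900.1 CPM in the crypt cells. Goblet markers were at 367, 366, 242 and 329 CPM and at 1057, 1394 and 1015 CPM.

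Enteroendocrine markers summed to 14.9, 14.1, 30.6 and 78.8 CPM in the organoids and to 7.89, 3.30 and 9.72 CPM in the crypt cells, and tuft markers to 2.12, 3.76, 3.50 and 9.502 CPM and to 2.41, 1.31 and 3.28 CPM. The lists of cells outside the epithelium were low, with 0 to 2 of 6 immune, 1 to 3 of 6 mesenchymal and 1 to 3 of 5 endothelial markers at 0 in a library. Immune markers summed to 8.71, 7.73, 9.85 and 10.46 CPM and to 6.97, 23.2 and 17.7 CPM, mesenchymal markers to 0.888, 1.14, 1.48 and 3.50 CPM and to 2.49, 1.53 and 2.27 CPM, and endothelial markers to 2.25, 4.75, 6.23 and 6.38 CPM and to 8.24, 15.1 and 14.7 CPM. The immune and endothelial sums were higher in both irradiated crypt libraries than in the control. Median UMIs per cell were 6709 to 10441 in the organoids and 11968 to 14399 in the crypt cells.

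To see which cells carried the members, each cell was thinned to 2000 UMIs and called positive for a marker list with at least 3 UMIs of it and negative with 0. These are ranges of a marker level, not cell types, and 1 cell can be positive for several lists. At 24 h, 17.7% of 2218 cells were regenerative-positive, against 7.72% at 15 h, 1.45% at 6 h and 0.307% (9 cells) at 0 h. In crypt cells the share was 0 of 1846 without irradiation, which allows up to 0.163%, and 10.4% in each irradiated library. With thinned counts, Cldn4 had at least 1 UMI in 14.3, 17.9, 34.4 and 48.6% of organoid cells (36.6, 38.6, 64.8 and 83.7% unthinned), and no class of cells that should lack Cldn4 was large enough to measure free RNA, since at most 2 cells of any library were immune-positive.

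Cldn4 was higher in regenerative-positive than in regenerative-negative cells of every library with at least 20 positive cells. The CPM were 468 against 119 at 6 h, 720 against 244 at 15 h and 1050 against 400.2 at 24 h, and in the irradiated crypt libraries 207 against 69.7 and 178 against 75.7. It was also higher later among the negative cells alone, at 96.2, 119, 244 and 400.2 CPM at 0, 6, 15 and 24 h. Among regenerative-negative crypt cells Cldn4 was at 7.34 CPM without irradiation (27 UMIs) and 69.7 and 75.7 CPM with it. Goblet-positive cells also had more Cldn4 than goblet-negative cells in the 4 organoid libraries, 1.07- to 1.72-fold. In the 3 crypt libraries the ratios ran from 1.00, which is no difference, to 5.08. The non-irradiated crypt library had 125 goblet-positive cells and little Cldn4, so its ratio rests on few UMIs. Proliferation-positive cells had less in every library, and the order was mixed for the stem, enterocyte and Paneth lists. Tjp1 was 1.42- to 1.67-fold higher in the regenerative-positive cells of the 3 organoid libraries, and its ratios of 0.719 and 1.08 in the crypt libraries rest on 4 and 7 UMIs in positive cells. Cldn2 was 1.09- to 1.41-fold higher in these organoid and 1.59- to 1.74-fold higher in the 2 irradiated crypt libraries. Ocln was 1.04- to 1.73-fold higher in the organoids, with ratios of 1.00 and 1.17 in the crypts. Cldn3 was 1.16- to 1.92-fold lower in the organoids, and Cldn7 and Cldn23 were mixed.

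Unlike Cldn4, Cldn15 was lower in regenerative-positive organoid cells, at 80.6, 80.7 and 45.9 CPM against 298, 353 and 436 CPM in negative cells at 6, 15 and 24 h. In the irradiated crypt cells it was at 247 against 164 CPM in replicate 1 and at 123 against 168 CPM in replicate 2. Cldn15 was also lower in stem-positive than in stem-negative cells of all 7 libraries. In organoids this gap was wider at the later times: stem-positive cells were at 211, 111, 102 and 67.0 CPM at 0, 6, 15 and 24 h, while stem-negative cells were at 490.5, 413, 433 and 468 CPM. Enterocyte-positive cells held 412, 315, 344 and 370 CPM of Cldn15 over the same times.

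Cldn3 and Cldn23 were likewise low in stem-positive organoid cells, 2.46- to 3.27-fold lower for Cldn3 and 4.19- to 6.20-fold for Cldn23. Of 37 pairs of a member and a marker list that could be compared in all 4 organoid libraries, 6 differed at least 1.5-fold in the same direction in each. The share of all genes that meet this rule was not computed, so the count does not set the members apart from other genes. The 6 pairs were Cldn3, Cldn15 and Cldn23 against the stem list, Cldn3 and Cldn15 against the proliferation list (all lower in positive cells), and Cldn3 against the enterocyte list (2.07- to 3.07-fold higher). Cldn2 was higher in stem-positive cells of all 4 organoid libraries, 2.57-fold at 0 h (149 against 58.0 CPM) and 1.17-fold at 24 h (130 against 111 CPM). It was 2.06-fold higher in stem-positive cells of the non-irradiated crypts (118 against 57.4 CPM). After irradiation Cldn2 was at 296 and 311 CPM in stem-positive and 360 and 400.5 CPM in stem-negative crypt cells, above the non-irradiated values in both classes. Cldn7 stayed within 0.713- to 1.45-fold between positive and negative cells of the stem, proliferation and enterocyte lists in all 7 libraries.

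**Figure D5:**
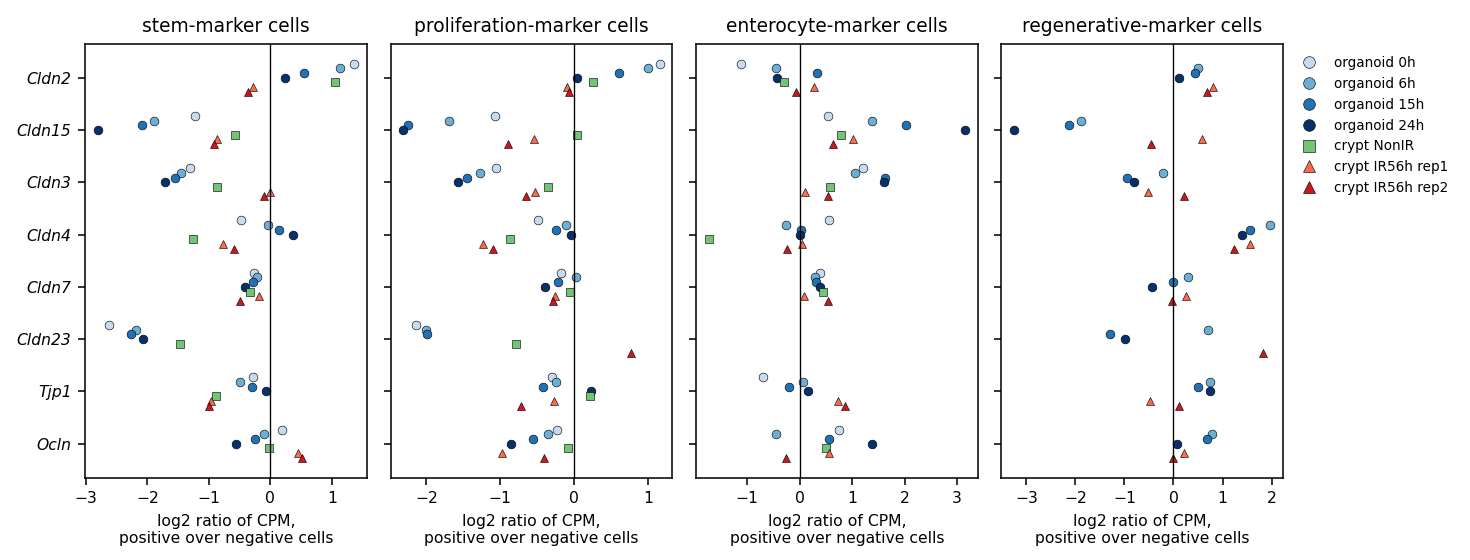
Log2 ratio of CPM in marker-positive over marker-negative cells (x axis, linear in log2) for 8 genes, one panel per marker list, one symbol per library (circles organoids, square non-irradiated crypt cells, triangles irradiated crypt cells). Points are drawn where both classes have at least 20 cells and more than 3 UMIs. Cldn4 lies right of 0 in all 5 libraries of the regenerative panel, and Cldn15 lies left of 0 in all 7 of the stem panel.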

How the data were processed

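The members and gene lists were chosen with earlier results of these data known. Bulk values are FPKM as deposited by the authors, 1 table per condition (3 tables, 6 libraries each). The submitters' processing notes list TopHat2 2.1.0 and Cuffnorm 2.2.1 without saying which step used which. For single cells the deposited values are expected counts, that is, UMIs with fractions where 1 UMI was shared between genes. These were summed unrounded and scaled to CPM here, since no count model was fitted. The notes also list STAR 2.7.10a and STARsolo.

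Each table was fitted separately by limma 3.58.1 (trend, robust, R 4.3.3) on log2(FPKM + 1), keeping genes whose mean reached 1 FPKM, with Benjamini-Hochberg adjustment over all genes tested and calls at an adjusted p under 0.05, two-sided. Fold changes in the text are ratios of mean FPKM, and log2 changes are of FPKM + 1, which understates those of low genes. Interaction terms used 12 libraries. The script was tested on simulated data.

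Cells needed 500 UMIs, 250 genes and no more than 20% mitochondrial UMIs, and no doublet caller was run. Python 3.11.15, pandas 2.3.3 and numpy 2.4.6 were used. Replicate numbers were checked for pairing. Same-numbered libraries of a table correlated between -0.09 and 0.21, over 0.1 in 2 of 9 pairs, so they were not treated as pairs.

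All members are named in each comparison of TGFB1 with vehicle within a bulk condition. Cldn1, which lay under the filters, is not named in the interaction terms, the vehicle levels between tables or the crypt cells. Without the filter neither of its interaction terms was called (limma adjusted p 0.177 by irradiation and 0.633 by day). Only some members are described in marker-positive cells. A few other genes that belong to the lists or patterns are not reported here by name. Genes of the further junction lists are named where called at least 2-fold in any TGFB1 comparison, or, in single cells, where they reached 2-fold in both irradiated libraries, which was chosen after the values were seen. Alternatives covered the pseudocount, filters, scaling, the fit, each library left out, cell filters and gates. The ATAC peak lists were not used here, because the notes list mm9, GRCm39 and mm39 while the annotation at hand is GRCm38.p6, so peaks could not be placed at start sites.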

Additional observations from a re-analysis of the deposited data

Results flagged for a closer look

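The response to TGFB1 differed between conditions by the interaction term of limma (adjusted p under 0.05) for the genes below. Between irradiated and non-irradiated organoids at D7, the difference in log2 change was 1.38 for Cldn4 (limma adjusted p 4.93e-09), 0.96 for Cldn15 (1.3e-09), 0.74 for Cldn3 (2.19e-07), 0.38 for Cldn23 (0.00147), 0.27 for Ocln (0.0041) and 0.21 for Cldn2 (0.00543). Between D11 and D7 of irradiated organoids, it was -2.54 for Cldn4 (limma adjusted p 2.08e-08), -1.74 for Cldn3 (1.23e-06), -1.22 for Cldn23 (1.38e-06), -0.91 for Cldn15 (6.04e-06), -0.78 for Cldn7 (0.00025), -0.69 for Ocln (4.4e-05) and -0.67 for Cldn8 (0.00332). The D7 irradiated libraries enter both sets. For Cldn3 the direction itself changed in bulk, since TGFB1 libraries lay above vehicle in D7 IR and below it in D7 non-IR and D11 IR. The D7 non-IR call was lost in a fit of all 18 libraries (limma adjusted p 0.202). In single cells of irradiated D8 organoids Cldn3 did not rise. At 24 h of 1 ng/mL TGFB1 it was at 0.894 of its 0 h level (0.869 to 0.920, counting error only, 1 library per time).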

How the results depend on the processing

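Of 720 values of single members in the 5 limma comparisons under alternatives, 699 kept their direction and their side of the threshold, 9 lost a call, 10 gained one and 2 turned sign without a call. The sign turned under quantile normalization for Cldn7 between irradiated and non-irradiated organoids (-0.045, adjusted p 0.492 by limma) and for Cldn2 between days (0.13). Cldn1, under the filter of 1 FPKM, was called in D7 non-IR without it (log2 change 0.23, limma adjusted p 0.0361). Requiring at least 2-fold changed the counts most. It left 3, 2 and 3 members, 956, 1484 and 1574 of all genes, and 4, 9 and 8 genes of the further junction lists in the D7 non-IR, the D7 IR and the D11 comparison. It left 1 member, 500 genes and 0 of those lists for the difference by irradiation (28 at adjusted p under 0.05 alone), and 3, 1880 and 4 for that by day. Leaving out 1 library in turn gave 8 to 9, 8 to 8 and 6 to 8 members called in the 3 conditions, and 6 to 7 and 7 to 8 in the differences. With the replicate block the calls were 8, 8, 7, 6 and 7 members and 7701, 8417, 7351, 5964 and 7396 genes, and no member's call changed. 9 of 18 libraries correlated best with their own number. Of 286 values of vehicle levels and single cells, 38 moved beyond their spread or counting interval. In the crypt cells, leaving out an irradiated library gave 1217 to 1299 genes at least 2-fold higher and 550 to 694 lower, with 2 members in each direction. The count of members lower in both was 1 with whole-number entries and 0 with per-cell CPM, and with whole-number entries the log2 ratios of Grhl2 turned to -0.67 and -0.39. FPKM carry no depth, so the precision of the lowest genes, Cldn1 and Cldn8, is unknown. The peak lists were not run.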
